A study of Mus musculus with 6 samples.

Results

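Notch signalling lets neighbouring cells control each other's fate. A ligand of the Delta or Jagged family on 1 cell binds a Notch receptor on the next, proteases release the receptor's intracellular part, and that fragment joins the DNA-binding protein RBPJ in the nucleus, where it turns on repressors of the HES and HEY families. In muscle stem cells the pathway is known for keeping cells undifferentiated and for holding back the myogenic programme.

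The genes described here are 10 members of this pathway, chosen by their symbols: the receptors Notch1, Notch2 and Notch3, the ligands Dll1 and Jag1, the DNA-binding factor Rbpj, the target genes Hes1, Hey1 and Heyl, and the HES family gene Hes6. They are 10 of the 55536 genes in the counts, and all 10 were among the 22404 genes tested. RNA was sequenced from cultured satellite cells, the stem cells of skeletal muscle, in 3 control and 3 cKO samples. The study set out to learn how the transcriptome of activated satellite cells changes when Hira, which encodes a chaperone of the histone H3.3, is lost. Mice of both groups were adult males of the C57BL/6J strain, aged 8 to 12 weeks, and carried Pax7CreErt2, a tamoxifen-dependent Cre driven by the Pax7 locus and hence active in satellite cells and their progeny. The control mice were Pax7CreErt2;Hira fl/+ by the study's methods, although the sample labels call them WT, so the controls can also lose 1 Hira allele, and the cKO mice were Pax7CreErt2;Hira fl/fl. All mice were fed tamoxifen for 2 weeks and regular food for 1 week, and muscle was injured with barium chloride. Satellite cells were sorted 5 days post-injury as CD34+ ITGA7+ CD45- TER119- SCA1- cells and grown for 48 h at low density in high-serum medium with bFGF. The methods call the replicates independent RNA samples without saying whether each came from a separate mouse, so p-values measure the spread between these samples, which may be technical.

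The libraries held 47944477 to 63323577 counts. Hira itself was counted 341 to 375 times in control samples and 161 to 293 times in cKO samples, with no overlap, a log2 fold change of -0.43 (standard error (SE) 0.12, adjusted p = 0.0237 from the quasi-likelihood test of edgeR), which became -0.34 (adjusted p = 0.104) without control replicate 1. The counts are not restricted to the floxed part of Hira, and 44.7% of its exonic bases overlap another gene on the same strand, so this is an incomplete check of the deletion. The study's own check was a strong drop of Hira RNA by RT-qPCR and no detected HIRA protein in cKO satellite cells. Satellite cell markers were present, among them Pax7 at 33.6 to 40.2 CPM (counts per 1000000 counts of the sample) and Myod1, Myf5 and Cdh15, while Calcr, a marker of quiescent cells, had 1 to 7 counts per sample and Chrdl2 14 to 39. Genes of muscle differentiation were present too. Myog had 93618 to 133724 and Ttn 476939 to 853377 counts per sample, against 1639 to 2468 for Pax7. Levels given here are therefore those of a culture that also expresses differentiation genes.

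Promoter sequences of 4 of the genes are given for orientation, with short letter patterns recognised by factors of this pathway or of muscle. They come from RefSeq on GRCm38.p6, the patched form of mm10, and span 250 bases before and 50 bases after an annotated start, written 5′ to 3′ on the strand of the gene. Such sequences were found for 7 of the 10 genes, as 10 promoters, and Hes1, Hey1 and Heyl have no entry there. Capitals mark 3 patterns searched on both strands: TGGGAA, the core of the RBPJ site, CACNAG, the N-box bound by HES repressors, and CAGCTG, an E-box bound by myogenic factors, which reads the same on either strand. These patterns were chosen after the values had been seen. The promoters of Notch3 and Jag1 are shown because these genes changed in opposite directions, the 2 promoters of Hes6 because it is the most abundant of the 10 genes, and 1 of the 2 promoters of Rbpj because its gene was the only one of the 7 with the RBPJ core.
Notch3, chr17:32166841-32167140, minus strand: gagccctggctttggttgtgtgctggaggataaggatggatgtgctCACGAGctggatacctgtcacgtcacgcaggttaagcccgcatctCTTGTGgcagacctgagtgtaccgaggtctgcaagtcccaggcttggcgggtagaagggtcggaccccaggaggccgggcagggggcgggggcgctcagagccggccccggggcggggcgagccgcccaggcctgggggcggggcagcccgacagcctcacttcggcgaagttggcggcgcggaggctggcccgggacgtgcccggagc
Jag1, chr2:137116471-137116770, minus strand: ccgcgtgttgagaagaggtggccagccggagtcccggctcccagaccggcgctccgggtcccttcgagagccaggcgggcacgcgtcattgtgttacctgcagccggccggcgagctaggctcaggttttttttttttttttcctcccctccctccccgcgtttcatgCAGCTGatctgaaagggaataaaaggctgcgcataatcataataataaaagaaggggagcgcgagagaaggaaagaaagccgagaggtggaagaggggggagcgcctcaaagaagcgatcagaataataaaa
Hes6, first start, chr1:91413989-91414288, minus strand: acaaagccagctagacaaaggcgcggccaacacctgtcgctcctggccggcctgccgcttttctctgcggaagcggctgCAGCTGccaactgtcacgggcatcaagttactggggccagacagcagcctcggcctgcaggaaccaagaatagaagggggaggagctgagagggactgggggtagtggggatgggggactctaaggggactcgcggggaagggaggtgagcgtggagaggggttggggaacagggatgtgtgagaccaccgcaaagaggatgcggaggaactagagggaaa
Hes6, second start, chr1:91413173-91413472, minus strand: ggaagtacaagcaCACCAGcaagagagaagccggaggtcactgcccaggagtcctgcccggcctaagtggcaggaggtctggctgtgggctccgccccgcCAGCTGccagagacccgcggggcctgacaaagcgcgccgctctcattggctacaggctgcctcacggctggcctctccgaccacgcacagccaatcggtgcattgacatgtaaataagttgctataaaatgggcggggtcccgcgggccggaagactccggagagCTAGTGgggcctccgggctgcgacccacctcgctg
Rbpj, chr5:53590096-53590395, plus strand: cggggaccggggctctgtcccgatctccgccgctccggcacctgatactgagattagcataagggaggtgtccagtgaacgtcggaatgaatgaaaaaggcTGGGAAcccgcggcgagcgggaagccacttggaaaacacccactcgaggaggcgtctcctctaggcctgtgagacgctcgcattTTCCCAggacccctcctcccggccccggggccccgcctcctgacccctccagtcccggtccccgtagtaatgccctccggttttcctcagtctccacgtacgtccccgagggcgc
With the start counted as 0 and the position given for the first base, the Notch3 promoter held N-boxes at -204 and -159. An E-box lay at -82 in the Jag1 promoter. Each Hes6 promoter had 1 E-box, at -171 and at -150, and the second also had N-boxes at -237 and 16. The RBPJ core was found at -149 and -65 in the Rbpj promoter shown. Among promoters not shown, those of Notch1, Notch2 and Dll1 also held N-boxes, and a Dll1 promoter held an E-box. None of these genes passed the test described below, so the patterns did not separate genes by direction. These patterns are common: of 32851 promoters of the same length, 25.6% held the RBPJ core, 42.5% the N-box and 16.3% the E-box. A match is a run of letters and not a measured binding site.

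Of the 10 genes, 1 was higher and 4 were lower in cKO in the quasi-likelihood test of edgeR, at a Benjamini-Hochberg adjusted p under 0.05 over all genes tested. Jag1 was the gene that rose, and Notch3, Hey1, Heyl and Hes6 fell. Among all genes tested, 15.8% were called, 9.38% higher and 6.46% lower, and among the 12560 genes with a mean of at least 5 CPM, a level that each of the 10 genes exceeds, the share was 21.0%, 10.6% higher and 10.4% lower. Scaling by total counts alone gave 2462 higher and 1057 lower genes in place of 2101 and 1448, and called 1 of the 10 genes as higher and 2 as lower. The groups did not overlap in CPM for 5 of the 10 genes, namely Notch3, Hey1, Hes6, Dll1 and Jag1, against 31.4% of all genes tested and 38.0% of those with a mean of at least 5 CPM. The median log2 fold change was -0.04 over the 10 genes, with 5 higher and 5 lower, and -0.0011 over all genes tested. In bulk RNA, fewer cells of a type and less RNA per cell cannot be told apart.

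**Figure D1:**
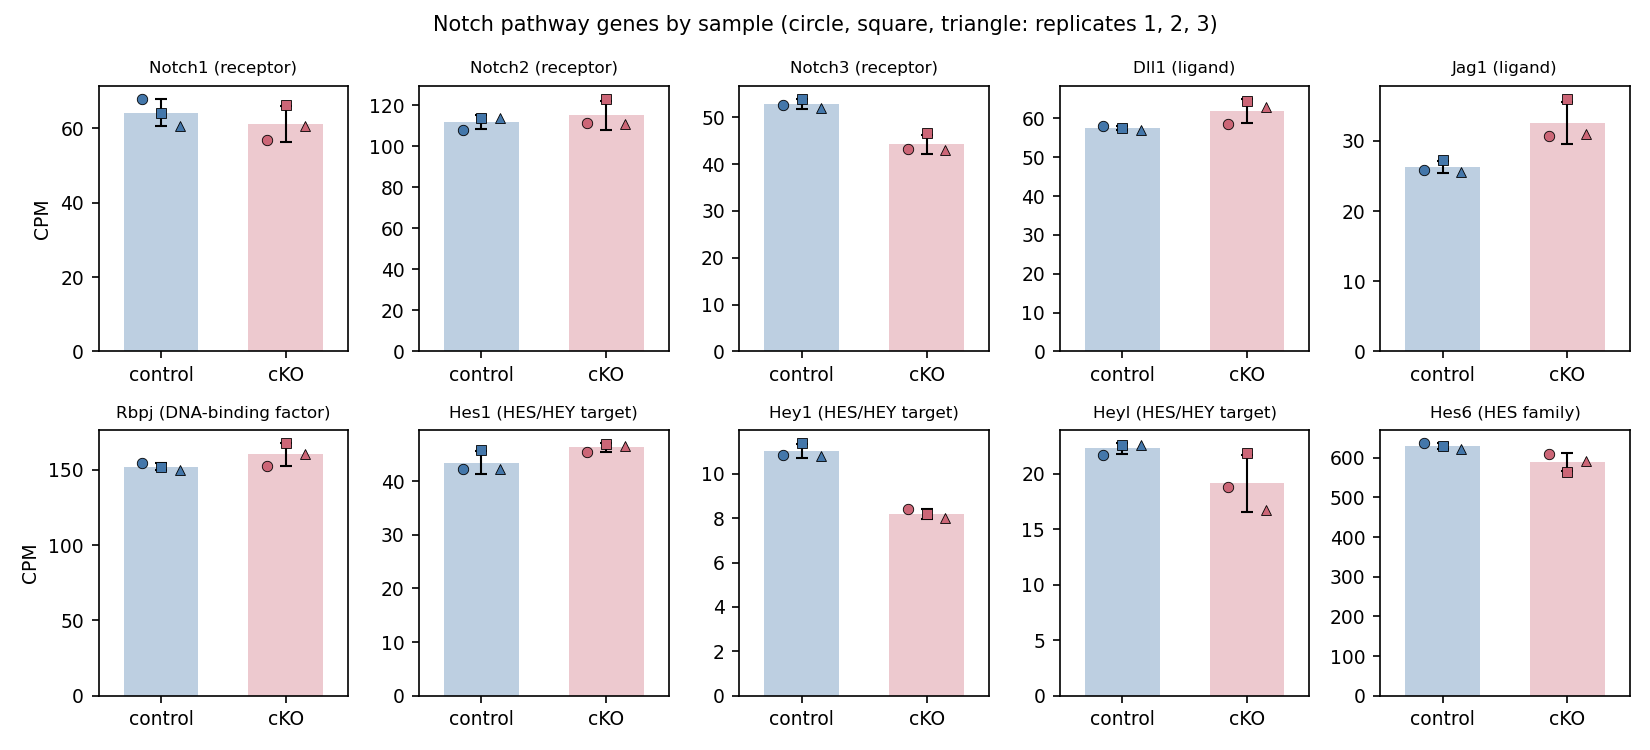
Level of each of the 10 genes in CPM (linear axis from 0) in control (blue) and cKO (red) samples. Bars are means of 3 samples, error bars are SD, and circles, squares and triangles are replicates 1, 2 and 3; the cKO samples lie below all control samples for Notch3, Hey1 and Hes6 and above them for Dll1 and Jag1.

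The receptors did not move together. NOTCH1, NOTCH2 and NOTCH3 are single-pass membrane proteins that bind the same families of ligands, and NOTCH3 is also known from the mural cells of vessels. Notch3 (ENSMUSG00000038146, chromosome 17 of mm10, 32120820 to 32166852, minus strand) was at 52.6, 54.0 and 52.0 CPM in control replicates 1, 2 and 3 and at 43.3, 46.6 and 43.0 CPM in cKO replicates 1, 2 and 3. All cKO samples lay below all control samples. Its mean was 52.9 ± 1.03 CPM in the control group and 44.3 ± 2.02 CPM in the cKO group (SD, n = 3 each), it fell by 17.6%, and its log2 fold change was -0.28 (SE 0.04, adjusted p = 0.000112 in edgeR). The call held with each sample left out in turn, at adjusted p values of up to 0.00178.

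Notch2 (ENSMUSG00000027878, chromosome 3, 98013527 to 98150361, plus strand) was the receptor with the most counts. It was at 108, 114 and 114 CPM in the control samples and at 111, 123 and 111 CPM in the cKO samples, so the groups overlapped and cKO replicate 2 was the highest. Its log2 fold change of 0.02 had a 95% interval from -0.067 to 0.10 (adjusted p = 0.834 in edgeR), and the sign turned without control replicate 1 (-0.0090) and without cKO replicate 2 (-0.033). Notch1 (ENSMUSG00000026923, chromosome 2, 26457903 to 26516663, minus strand) was at 68.0, 64.1 and 60.7 CPM in the control samples and at 56.8, 66.4 and 60.5 CPM in the cKO samples. These ranges overlapped, with cKO replicate 2 second to control replicate 1. Its log2 fold change was -0.09 with a 95% interval from -0.20 to 0.017 (adjusted p = 0.271 in edgeR). Without cKO replicate 2 Notch1 passed the threshold, with a log2 fold change of -0.15 and an adjusted p of 0.0346.

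Seen as a composition of the receptors, the share of Notch3 was lower and that of Notch2 higher in each cKO sample than in any control sample. For this the counts per kb of exonic length of the 3 receptors were summed in each sample. Notch3 made up 30.6, 30.7 and 30.3% of the sum in the control samples and 27.2, 26.4 and 26.8% in the cKO samples. Notch2 made up 46.9, 48.5 and 49.7% in the control samples and 52.5, 52.3 and 51.8% in the cKO samples. Neither share overlapped between the groups. Shares of a sum depend on one another, so the moves of Notch3 and Notch2 are not separate results. Means moved by -3.73 percentage points for Notch3 and 3.80 for Notch2, each at p = 0.1 in a two-sided exact permutation test, the smallest p that 3 samples against 3 can give, and 0.167 after adjustment over the 10 shares tested. The share of Notch1 was 21.1 ± 1.23% in control and 21.0 ± 0.631% in cKO (SD, n = 3 each, exact permutation p = 1).

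Of the 2 ligands, Jag1 rose in cKO and Dll1 did not pass the test. JAG1 and DLL1 are membrane proteins that activate Notch receptors on neighbouring cells. Jag1 (ENSMUSG00000027276, chromosome 2, 137081456 to 137116644, minus strand) was at 25.9, 27.2 and 25.6 CPM in the control samples and at 30.7, 36.0 and 31.0 CPM in the cKO samples. All cKO samples lay above all control samples, with cKO replicate 2 the highest. The mean went from 26.2 ± 0.868 to 32.6 ± 3.01 CPM (SD, n = 3 each), a rise of 22.1% and a log2 fold change of 0.29 (SE 0.05, adjusted p = 0.00181 in edgeR). Leaving out single samples gave adjusted p values of up to 0.0174. Dll1 (ENSMUSG00000014773, chromosome 17, 15367354 to 15376872, minus strand) was at 58.1, 57.6 and 57.0 CPM in the control samples and at 58.5, 64.6 and 62.8 CPM in the cKO samples. The groups did not overlap, but cKO replicate 1 was close to the controls. Its log2 fold change of 0.08 (SE 0.04) did not pass the threshold (adjusted p = 0.173 in edgeR), and it did so without cKO replicate 1 (0.12, adjusted p = 0.0215).

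Jag2, another ligand of the pathway that is not among the 10 genes, went the other way. It was at 45.4, 45.0 and 44.5 CPM in the control samples and at 40.9, 40.4 and 39.9 CPM in the cKO samples, with no overlap, and its log2 fold change was -0.18 (SE 0.04, adjusted p = 0.00246 in edgeR). In the summed counts per kb of Dll1, Jag1 and Jag2, a composition added after the values had been seen, Jag1 went from 18.3 ± 0.483% to 21.4 ± 1.12% and Jag2 from 26.2 ± 0.133% to 22.3 ± 1.14% (SD, n = 3 each, exact permutation p = 0.1 for each). Dll1 held the largest of the 3 shares in each sample, 55.5 ± 0.350% in control and 56.3 ± 1.003% in cKO (SD, n = 3 each, exact permutation p = 0.3).

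**Figure D2:**
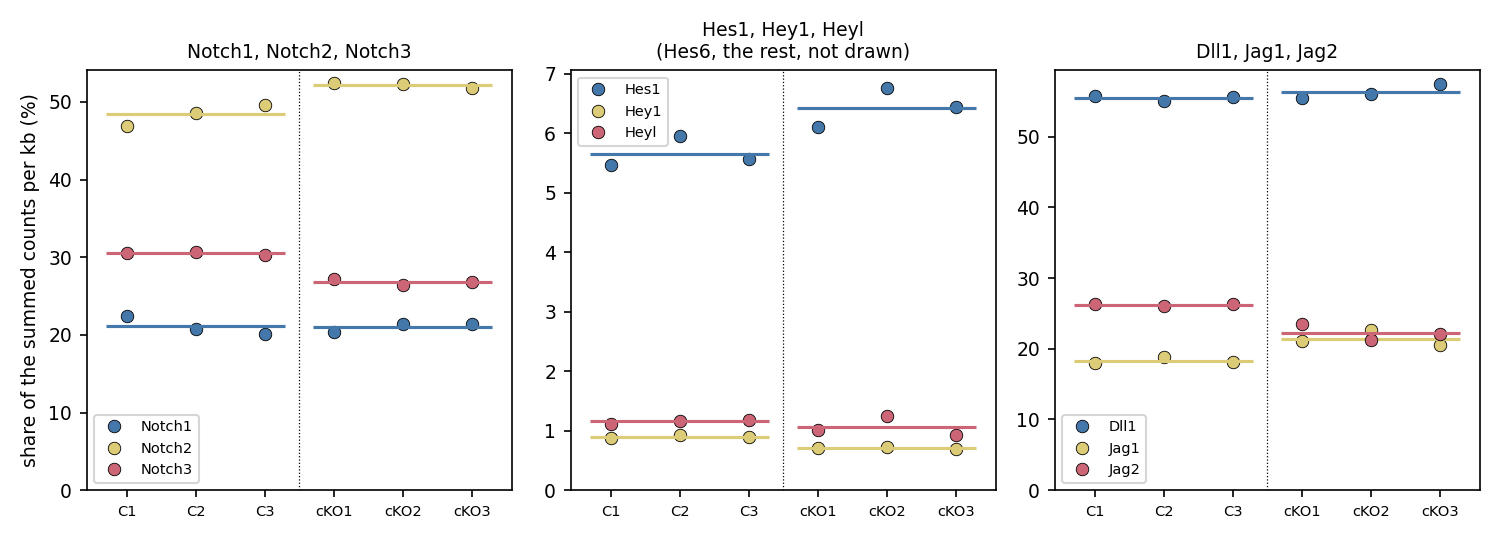
Share in percent (linear axis from 0) of each receptor, of Hes1, Hey1 and Heyl, and of each ligand in the summed counts per kb of its group of genes, for control samples C1 to C3 and samples cKO1 to cKO3. Hes6, the rest of the HES/HEY sum, is not drawn. Points are samples and lines are group means; the mean Notch3 share is 30.5% in control and 26.8% in cKO, and the mean Jag1 share is 18.3% and 21.4%.

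Rbpj, which encodes the protein that carries the Notch signal to DNA, differed by less than the test could call. Rbpj (ENSMUSG00000039191, chromosome 5, 53466152 to 53657362, plus strand) was at 155, 152 and 150 CPM in the control samples and at 153, 168 and 160 CPM in the cKO samples. The groups overlapped. Its log2 fold change of 0.05 had a 95% interval from -0.024 to 0.13 (adjusted p = 0.392 in edgeR). Rbpj counts are uncertain, since 9.005% of its 75-base windows also occur in other genes, among them the processed pseudogene Rbpj-ps3, which had 3497 to 4743 counts per sample, 31.8 to 33.1% of the sum of both. Summing both into 1 row, an alternative added after seeing the data, gave a log2 fold change of 0.06 (SE 0.04, adjusted p = 0.287 in edgeR).

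Of the direct targets, Hey1 and Heyl fell and Hes1 did not pass the test. All 3 encode basic helix-loop-helix repressors that the activated receptor and RBPJ switch on in many tissues. Hey1 (ENSMUSG00000040289, chromosome 3, 8663359 to 8667256, minus strand) was counted 614, 721 and 663 times in control samples and 404, 483 and 446 times in cKO samples, or 10.9, 11.4 and 10.8 CPM against 8.43, 8.17 and 7.99 CPM. The gap between the groups was wider than the spread within either. Its mean was 11.01 ± 0.323 CPM in the control group and 8.19 ± 0.220 CPM in the cKO group (SD, n = 3 each), it fell by 26.9%, and its log2 fold change was -0.45 (SE 0.06, adjusted p = 7.4e-05 in edgeR), with adjusted p values of up to 0.00112 when single samples were left out. This was the largest change in size among the 10 genes.

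Heyl (ENSMUSG00000032744, chromosome 4, 123233556 to 123249875, plus strand) was at 21.7, 22.5 and 22.6 CPM in the control samples and at 18.8, 21.9 and 16.8 CPM in the cKO samples. The groups overlapped, because cKO replicate 2 lay within the range of the controls. The cKO samples varied more, with means of 22.3 ± 0.490 CPM in the control group and 19.1 ± 2.58 CPM in the cKO group (SD, n = 3 each). Its log2 fold change was -0.24 (SE 0.07, adjusted p = 0.0272 in edgeR). The call was lost without control replicate 2 (adjusted p = 0.0919), control replicate 3 (0.1002) or cKO replicate 3 (0.131), and with scaling by total counts alone (0.0563). Heyl is also a gene that the study picked from these samples for a heatmap, so its direction is not independent evidence.

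Hes1 (ENSMUSG00000022528, chromosome 16, 30064384 to 30067796, plus strand) was at 42.3, 45.9 and 42.2 CPM in the control samples and at 45.5, 47.0 and 46.6 CPM in the cKO samples. Control replicate 2 overlapped the cKO range. The log2 fold change of 0.07 had a 95% interval from -0.019 to 0.15 (adjusted p = 0.311 in edgeR). That interval lies above those of Hey1 (-0.58 to -0.33) and Heyl (-0.39 to -0.093), without overlap; the difference between genes was not tested as such.

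Hes6 fell by a small amount. Unlike the other HES proteins, HES6 is known to counteract HES1 and to favour differentiation, and it is expressed in myoblasts independently of Notch activation. Hes6 (ENSMUSG00000067071, chromosome 1, 91411483 to 91414038, minus strand) was at 637, 630 and 622 CPM in the control samples and at 610, 564 and 591 CPM in the cKO samples. All cKO samples lay below all control samples. Its mean was 629.8 ± 7.48 CPM in the control group and 588 ± 23.0 CPM in the cKO group (SD, n = 3 each), it fell by 8.14%, and its log2 fold change was -0.12 (SE 0.03, adjusted p = 0.0227 in edgeR). Leaving out control replicate 1, 2 or 3 gave adjusted p values of 0.0814, 0.0887 and 0.0615, and scaling by total counts alone gave 0.0538.

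**Figure D3:**
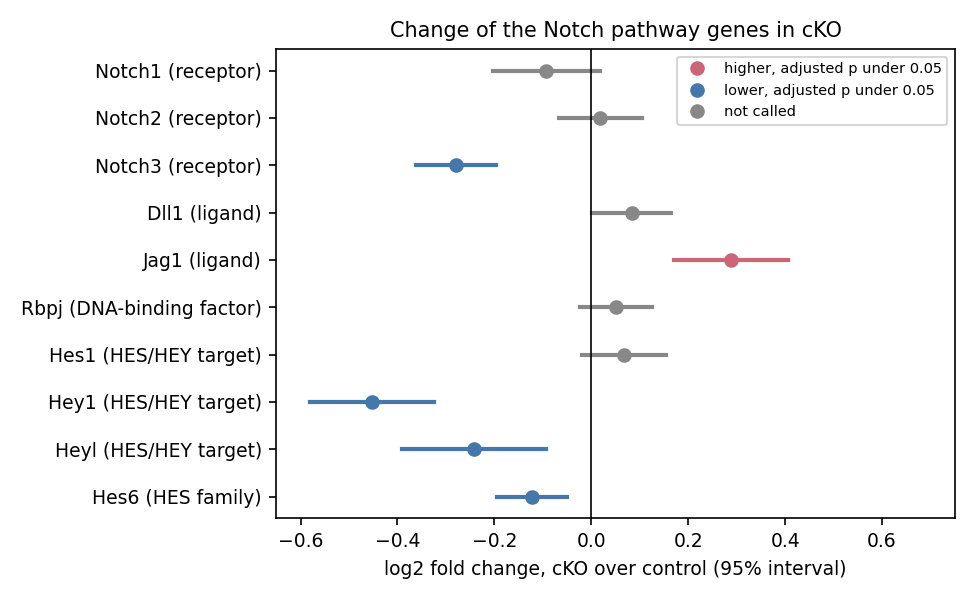
Log2 fold change of cKO over control for the 10 genes (points) with 95% intervals (lines) from edgeR's fit to 3 control and 3 cKO samples. Jag1 (0.29, red) lies above 0, Notch3 (-0.28), Hey1 (-0.45), Heyl (-0.24) and Hes6 (-0.12, all blue) lie below it, and the other 5 genes (grey) were not called.

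Compared as levels per kb of exonic length, the 10 genes spanned a wide range. In control, Hes6 stood first at 348 ± 4.14 CPM per kb, followed by Hes1 (21.4 ± 1.03), Dll1 (13.6 ± 0.141), Rbpj (11.9 ± 0.192), Notch2 (10.4 ± 0.327), Notch3 (6.54 ± 0.127), Notch1 (4.52 ± 0.255), Jag1 (4.50 ± 0.149), Heyl (4.35 ± 0.0958) and Hey1 (3.37 ± 0.0990; SD, n = 3 each). Neighbours in this order had ranges that did not overlap, except that Notch1 overlapped Jag1 and Jag1 overlapped Heyl. The place of Rbpj is uncertain, since its level leaves out counts assigned to Rbpj-ps3, 31.8 to 33.1% of the sum of both. In cKO Jag1, at 5.59 ± 0.516 CPM per kb, took the sixth place above Notch3 (5.47 ± 0.250) and Notch1 (4.30 ± 0.341), but its samples overlapped those of Notch3. Reads that cross an exon junction are lost to an aligner that does not split reads, and when levels were instead taken per 75-base position inside a single exon, 6 of the 10 genes kept their rank in control, with Rbpj and Notch2 exchanged and Notch1 and Jag1 exchanged. Within the sum of Hes1, Hey1, Heyl and Hes6, Hes6 made up 92.3 ± 0.297% in control and 91.8 ± 0.482% in cKO (SD, n = 3 each, exact permutation p = 0.2). Hes1 went from 5.66 ± 0.257% to 6.43 ± 0.328% and Hey1 from 0.894 ± 0.0238% to 0.708 ± 0.0215%, with no overlap (exact permutation p = 0.1 for each). These shares depend on one another and mainly on Hes6, which fell, and Hes1 itself was not called. The share of Heyl was 1.15 ± 0.0356% and 1.06 ± 0.171% (exact permutation p = 0.4).

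Some counts of these genes may include reads of a neighbour, or leave out reads in bases shared with it. The sources used here do not state whether counting used the strand of the reads. Of the exonic bases, 20.6% of Dll1, 9.76% of Notch1 and 6.03% of Notch3 overlap a gene on the opposite strand, and 5.02% of Notch2 overlaps a gene on the same strand. The partners had few counts: A930024N18Rik at Dll1 had 51 to 66 per sample, 0610009E02Rik at Notch1 21 to 40, Gm17276 at Notch3 61 to 100 and Gm42820 at Notch2 73 to 115. If reads matching several genes were dropped, these counts would not measure the loss. The exons of Jag1, Hes1, Hey1, Heyl and Hes6 overlap no other gene and share no 75-base window with one.

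Beyond these 10, a list of 67 further pathway genes, written by hand, was read in the same fit. Of the 58 tested, 7 were higher and 9 lower in cKO in edgeR's test, 27.6% against 15.8% of all genes and 21.0% of those with a mean of at least 5 CPM, and their median log2 fold change was 0.01. These calls include all 5 listed targets in muscle stem cells, Pax7 and the 4 collagen genes described below, which raise the share. Pax7 and Col5a3 were picked by the study from these samples, so the share is not an independent measure of the pathway. Leaving out each sample in turn, 11 of the 16 calls were kept throughout, and those of Adam10, Numbl, Dtx3, Maml3 and Ncor1 were lost at least once. Apart from Jag2, receptors and canonical ligands outside the 10 genes were scarce. Notch4, a receptor known from endothelium, was at 0.814 to 1.22 CPM in control and 1.17 to 1.505 CPM in cKO (log2 fold change 0.34, adjusted p = 0.240 in edgeR). Dll3 had 2 to 10 counts and Dll4 1 to 5 counts per sample, too few for the test.

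Among non-canonical ligands, the imprinted gene Dlk1 had the largest fold change of the list. It was at 0.371, 0.474 and 0.554 CPM in the control samples and at 1.06, 1.61 and 1.43 CPM in the cKO samples, with no overlap and a log2 fold change of 1.53 (SE 0.21, adjusted p = 0.000119 in edgeR). Its level stayed low, with 21 to 34 counts per control sample and 51 to 95 per cKO sample. Dlk2 (0.36, adjusted p = 0.0566) and Dner (0.14, adjusted p = 0.177) also had all cKO samples above all control samples without passing edgeR's threshold. Dlk2 passed it without cKO replicate 2 (adjusted p = 0.0255).

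Of the genes that act on ligands and receptors before or besides the nuclear steps, 1 of 4 for ligand endocytosis, 0 of 5 for receptor glycosylation and maturation, 1 of 9 proteases and 2 of 7 for receptor turnover and antagonism were called, where the share of all genes tested was 15.8%. Neurl1a, a ubiquitin ligase that acts on ligands, fell from 184 ± 5.19 to 162 ± 6.14 CPM (SD, n = 3 each; log2 fold change -0.20, adjusted p = 0.00104 in edgeR). Adam10, the protease that makes the first ligand-induced cut in the receptor, fell from 78.2 ± 4.67 to 70.4 ± 5.12 CPM, and it was the protease called (-0.18, adjusted p = 0.0284). That call was lost without control replicate 1 (adjusted p = 0.137), control replicate 3 (0.0921) or cKO replicate 1 (0.0582). Of the 5 genes of receptor glycosylation and maturation, 0 were called in edgeR, DESeq2 or limma voom, and 2 had an unadjusted p under 0.05 in edgeR. Mfng had 5 to 16 counts per sample and was not tested. Of the genes of receptor turnover and antagonism, 2 rose: Numbl, a relative of the Notch inhibitor Numb, by 0.12 on the log2 scale (adjusted p = 0.0189), and Dtx3, of the Deltex family, by 0.20 (adjusted p = 0.0206). The call of Numbl was lost without control replicates 1 (0.0614), 2 (0.0547) or 3 (0.106) or cKO replicate 3 (0.0515), and that of Dtx3 without control replicate 2 (0.126), control replicate 3 (0.113) or cKO replicate 2 (0.0586).

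Among nuclear partners of RBPJ, 2 of 8 coactivators and 3 of 14 corepressors tested were called, where 21.0% of genes with a mean of at least 5 CPM were. Of the coactivators, Ep300, an acetyltransferase, fell from 55.7 ± 2.05 to 48.7 ± 1.27 CPM (SD, n = 3 each), with a log2 fold change of -0.22 (adjusted p = 0.000938 in edgeR), and Maml3, of the Mastermind family that bridges receptor and acetyltransferase, had -0.13 (adjusted p = 0.0286). Of the corepressors, L3mbtl3, which encodes an RBPJ-binding repressor, rose from 18.9 ± 0.438 to 25.7 ± 1.23 CPM, by 0.42 on the log2 scale (SE 0.05, adjusted p = 1.1e-05). Its samples were at 18.4, 18.9 and 19.3 CPM in control and at 25.0, 27.2 and 25.0 CPM in cKO. Tle4, a Groucho corepressor recruited by HES proteins, fell from 9.19 ± 0.437 to 7.43 ± 0.190 CPM (-0.33, adjusted p = 0.00225), and Ncor1 had -0.11 with overlapping groups (adjusted p = 0.0467). Maml3 lost its call without control replicate 2 (0.128), control replicate 3 (0.0959), cKO replicate 1 (0.0667) or cKO replicate 3 (0.0899). Ncor1 kept its call only without cKO replicate 2, and the other omissions gave adjusted p values of 0.0633 to 0.178.

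Other HES and HEY genes were near the limit of detection. Hey2 had 32 to 59 counts per sample and a log2 fold change of 0.08 (SE 0.21, adjusted p = 0.863 in edgeR), whose sign turned without control replicate 3 (-0.080), cKO replicate 2 (-0.011) or cKO replicate 3 (-0.0032). Hes3 had 2 to 9 counts and Hes7 3 to 9. Hes2 and Hes5 had at most 1 and 2 counts in any sample, under the 3 counts that a count of 0 allows. The targets Nrarp, with 4 to 7 counts, and Dtx1, with 1 to 8, were also too scarce for the test.

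Of 5 genes described as Notch targets in muscle stem cells, all were called, 3 higher and 2 lower, against 15.8% of all genes tested and 21.0% of those with a mean of at least 5 CPM. The collagen gene Col5a1 rose from 233 ± 11.3 to 329.9 ± 22.3 CPM (SD, n = 3 each), or by 0.48 on the log2 scale (adjusted p = 1.9e-06 in edgeR). Col6a1 (0.19, adjusted p = 0.00385) and Col6a2 (0.32, adjusted p = 0.00364) rose as well. Col5a3 (-0.21, adjusted p = 0.00442) and the satellite cell factor Pax7 (-0.19, adjusted p = 0.00656) fell, and the study picked both of these from these samples. In the C2C12 myoblast line, by contrast, the study lists Col5a1 among the markers that fell without Hira. The collagen genes are also expressed by fibroblasts.

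**Figure D4:**
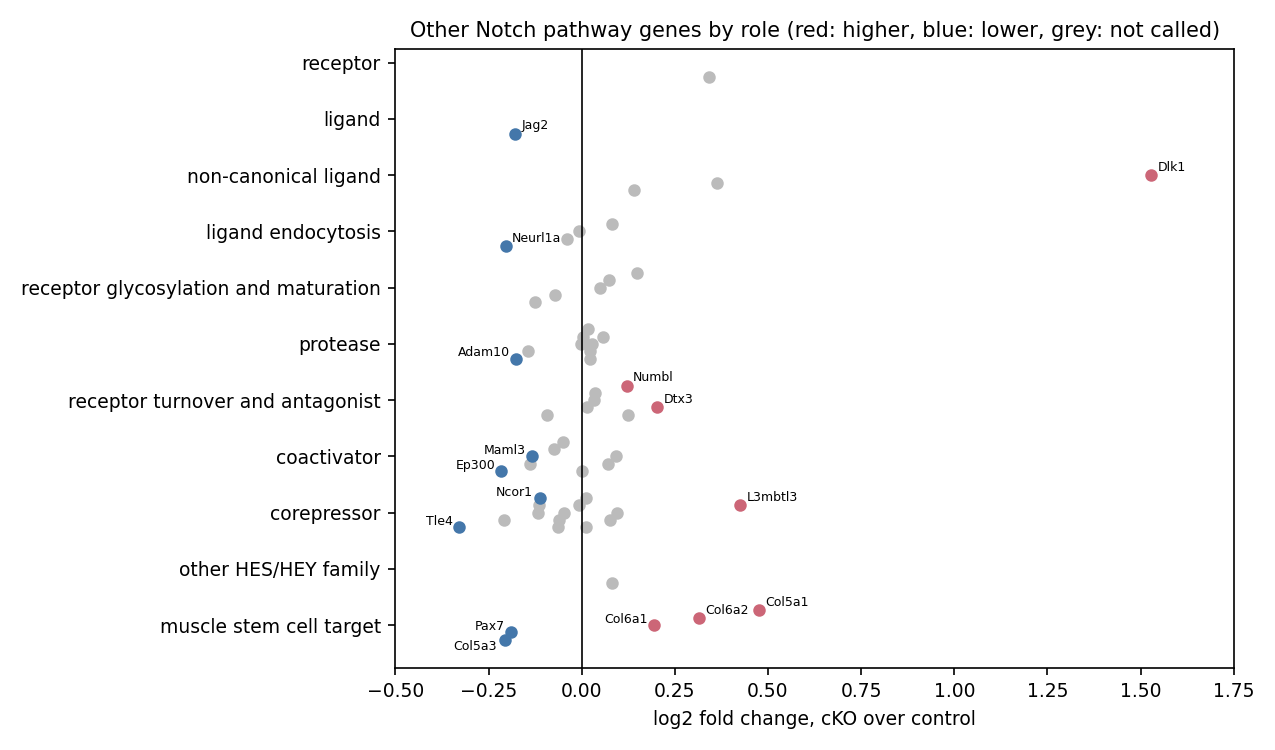
Log2 fold change of cKO over control for the 58 tested genes of the further pathway list, in rows by role (vertical scatter within a row has no meaning). Red points were called higher (7), blue points lower (9) and grey points were not called; named points include Dlk1 (1.53), Col5a1 (0.48), L3mbtl3 (0.42) and Tle4 (-0.33).

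Markers of other cell types moved with the groups, and some of the pathway genes above are also expressed by those cells. The study measured higher Cdh5 and Pdgfra, which are in these lists, by RT-qPCR in cKO satellite cells. It also found VE-Cadherin staining there, and proposes that the satellite cells themselves express genes of other lineages. Which cells carried the markers was not tested here. The sort gate was CD45- TER119- SCA1-, set against blood cells and the SCA1+ cells among fibroblasts and endothelium. Ptprc, the gene of CD45, had 72 to 94 counts in control samples and 126 to 169 in cKO samples. How completely the gate removed such cells was not tested. Of all genes tested, 9.38% were called higher. Of 11 macrophage markers, 11 rose, with a summed level of 118 to 123 CPM in control and 249.6 to 293.5 CPM in cKO. Of 11 endothelial markers, 5 rose in edgeR's test (21.8 to 23.4 against 32.2 to 38.2 CPM), while DESeq2 called 3 and limma voom 4. Of 7 fibroblast markers tested, 4 rose (527 to 553 against 783 to 876 CPM), with Tcf21 at or under 3 counts throughout. Of 10 smooth muscle and pericyte markers tested, 8 rose and 1 fell (3266 to 3319 against 3581 to 3728 CPM), with Kcnj8 at or under 3 counts. Of 4 glial markers tested, 0 were called in edgeR, 0 in DESeq2, 2 in edgeR's likelihood-ratio test and 0 in limma voom, 3 had an unadjusted p under 0.05, and their sum was 11.03 to 11.6 CPM in control and 12.6 to 15.8 CPM in cKO. Called lower were 6.46% of all genes tested and 10.4% of those with a mean of at least 5 CPM. Muscle lists moved down: 6 of 9 satellite cell markers fell (1872 to 1933 against 1759 to 1782 CPM). The other 3 had positive log2 fold changes and were not called. Of 10 genes of muscle differentiation, 7 fell (35360 to 36470 against 29050 to 31260 CPM). Each sum is weighted to its most counted genes. Acta2 (152709 to 190913 counts per sample) made up most of the smooth muscle and pericyte sum. Col3a1 (21336 to 28862) did so for fibroblasts, Lyz2 (4586 to 12103) for macrophages, and Ttn with Myh3 for muscle differentiation. The summed ranges of control and cKO did not overlap for any of the 7 lists. Their part in the rise of Jag1, Dlk1 and the collagen genes and in the fall of Notch3, Hey1, Heyl and Hes6 was not tested.

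**Figure D5:**
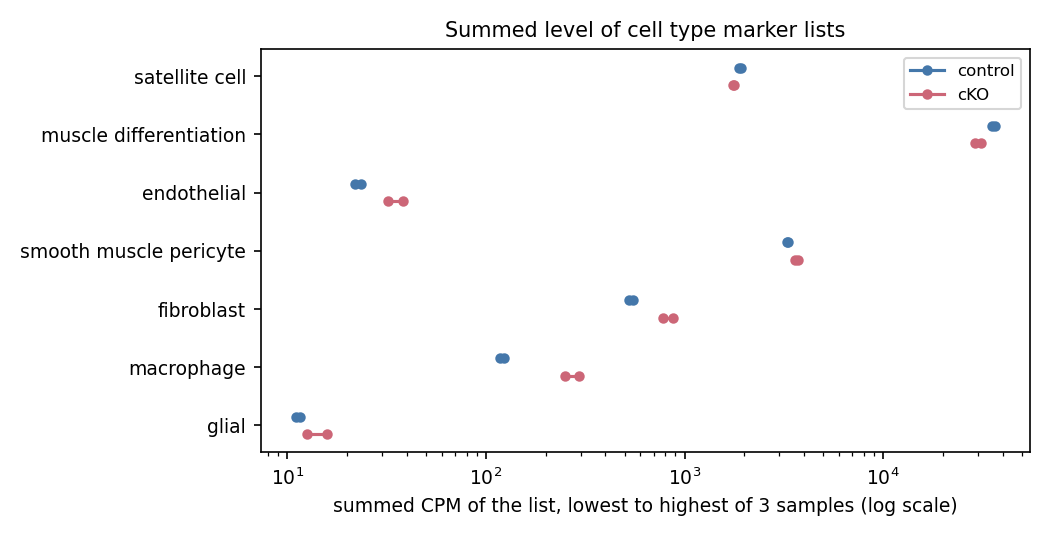
Summed level of 7 lists of cell type markers in CPM (log axis), in which the most counted genes weigh most. Each line runs from the lowest to the highest of 3 samples, in control (blue) and cKO (red); the macrophage list lies at 118 to 123 CPM in control and 249.6 to 293.5 CPM in cKO, and the 2 muscle lists lie lower in cKO.

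For each of the 5 called genes, the 3 genes with the most similar profile were found by Pearson's r of log2 CPM over the 6 samples, among 20607 genes with at least 10 counts in each sample. For Notch3 these were Tiam2 (r = 0.997), Frem2 and Gm12758. Zzef1 (r = 0.998), Gvin1 and Tmtc3 were the closest to Jag1. Olfm1 (r = 0.999), Lsp1 and Kif26b stood closest to Hey1, Neu3 (r = 0.996), Lamtor1 and Cdk6 to Heyl, and Gm19503 (r = 0.999), Cln8 and Kpna1 to Hes6. Values this high are common over 6 points that share the same 2 groups and library totals: r exceeded 0.95 for 213 genes with Notch3, 423 with Jag1, 290 with Hey1, 52 with Heyl and 208 with Hes6, and they are given as descriptions.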

How the data were processed

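RNA was sequenced as single-end reads of 75 bp from stranded total RNA libraries of 3 control and 3 cKO samples. The authors aligned reads to mm10 with Bowtie2 2.3.4.2, an aligner that leaves reads unsplit at introns. They counted reads per gene with featureCounts 1.6.3 and deposited these raw counts (versions also listed in the submitters' processing notes). Strand setting and handling of reads that match several genes are not given in the sources used here. Deposited counts divided by size factors, and a table of the authors' own DESeq2 2.11.40.6 comparison (mean, log2 fold change, standard error, Wald score, p and adjusted p), were not used.

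Groups were taken from the sample labels. All 55536 identifiers matched GENCODE M21, which gave symbols, coordinates and exonic lengths. In edgeR 4.0.16 (R 4.3.3), genes were kept by filterByExpr, scaled by TMM and compared by the quasi-likelihood test with no term besides genotype. Called means a Benjamini-Hochberg adjusted p under 0.05 over 22404 genes. The biological coefficient of variation was 3.92%. Scripts were tested on simulated data. Shares were compared by exact permutation. Replicates differed by more than sampling noise, so none was counted as a duplicate. Control replicates 2 and 3 were the most alike, with a chi-square per degree of freedom of 2.03. The other pairs within a group had 5.2 to 9.39. Alternatives were DESeq2 1.42.0, the likelihood-ratio test, limma 3.58.1 (voom), other scalings and filters, an adjusted p under 0.01, a replicate block, and leaving out each sample.

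Members, lists and rules were chosen with earlier results of these data known. Named genes are the 10 members, Hira, other receptors, ligands and HES/HEY genes, called pathway genes, the 3 genes most like each called member, and, chosen after their values were seen, scarce genes and overlapping neighbours. Python 3.11.15, numpy 2.4.6, pandas 2.3.3, scipy 1.17.1 and matplotlib 3.10.9 were used for summaries and plots.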

Additional observations from a re-analysis of the deposited data

How the results depend on the processing

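Notch3, Jag1 and Hey1 were called in the same direction under all 16 alternatives. Rbpj and Hes1 were not called under any of theirs. Heyl and Hes6 stayed negative throughout but lost their calls with scaling by total counts (-0.22 and -0.098) and at an adjusted p under 0.01 (-0.24 and -0.12), so that each of these settings called 2 of the 10 genes as lower. Leaving out each sample in turn gave 1 to 2 of the 10 genes higher and 2 to 5 lower, and 5 to 8 higher and 7 to 12 lower of the further pathway list. The log2 fold changes then ranged from -0.35 to -0.16 for Heyl, -0.15 to -0.093 for Hes6, -0.15 to -0.044 for Notch1, -0.033 to 0.040 for Notch2, 0.054 to 0.12 for Dll1, -0.52 to -0.29 for Hira and -0.080 to 0.23 for Hey2. Hira had -0.43 and was not called at an adjusted p under 0.01. Over all genes, 732 were lower at that threshold, and 917 to 1673 with single samples left out; total counts alone gave 2462 higher and 1057 lower in place of 2101 and 1448. Fewer samples or a stricter threshold are built into these settings, and for the rest the cause was not tested.

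The Notch1 share changed by 0.012 percentage points with 75-base positions in place of length, and by -0.56 to 0.63 with single samples left out, so its sign is not defined. With no division by length the Notch3 share changed by -3.01 and the Hey1 share by -0.32 points, and the level order kept 6 of 10 ranks with 75-base positions. Same-numbered control and cKO samples did not deviate together (correlations -0.013, -0.0045 and -0.015), so the numbers were not taken as pairs; the replicate block called the same 5 of the 10 genes and, of the further pathway list, 7 higher and 7 lower, without Adam10 and Ncor1. Precision is limited for Notch4, Dlk1 and Hey2, which had under 100 counts per sample, and genes such as Dll4 and Hes5 could not be tested at this depth.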
